A study of Rattus norvegicus with 22 samples.

Results

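The urea cycle and ammonia handling genes described here are the 8 genes Cps1, Otc, Ass1, Asl, Nags, Slc25a15, Glul and Gls2, which encode enzymes and a carrier that turn ammonia into urea or move it into and out of glutamine. They were chosen by name: every probe that was not a control and whose gene name on the array matched one of the 8, ignoring case. Each name matched 1 probe, so 8 of the 26296 gene names on the array were described, and all 8 were among the 17089 gene symbols tested.

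In the liver, ammonia released from amino acids enters the urea cycle in the mitochondria of hepatocytes near the portal vein, and the cycle is completed in the cytosol. Ammonia that passes these cells is bound into glutamine by hepatocytes around the central vein, while periportal cells release it again from glutamine. The pathway is known for following the supply of dietary protein and for its sharp division between the zones of the liver lobule.

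The study asked how a diet enriched with biologically active substances (BASE-diet) affected the liver transcriptome of adult and old male Sprague-Dawley rats. Rats that were 8 weeks old at the start received a semi-synthetic control diet with lard (CD) or a BASE-diet of the same kind (BD). In BD, salmon fat replaced part of the lard and rapeseed oil was higher. Hydrolysed linden flower extract, pumpkin puree and 2 probiotic bacterial strains were added to it. Liver RNA was taken after 3 or 14 months of feeding, giving CD 3 (n = 5), BD 3 (n = 5), CD 14 (n = 6) and BD 14 (n = 6), with 1 array for each rat. Every rat was hybridised against a common reference, pooled liver RNA of healthy rats aged 10 weeks that took no part in the experiment. Months of feeding and age of the rat were therefore the same variable. Arrays of the 3-month groups that the study set aside were not analysed here. The labels put the rat in Cy5 and the reference in Cy3 on all 22 arrays, whereas the methods name Cy3 for control rats and Cy5 for BASE-diet rats; the labels were followed, and dyes were not swapped on any array. Values are log2 ratios of rat over reference, so 0 means a level equal to the reference, and a difference of 1 between groups is a doubling.

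The liver label was checked against 8 hepatocyte markers (Alb, Ttr, Apoa1, Serpina1, Tf, Ahsg, Fgb and Hnf4a), all of which were well above background on all 22 arrays. Their mean log2 ratio lay between -0.58 and 0.33 on 21 arrays and was -1.36 on CD 3 replicate 4. That array also stood apart in brightness, with 52.4% of its spots well above background in Cy5 against 66.2% to 93.6% on the others, and a median background-subtracted Cy5 signal of 21.8 against 65.8 to 488. The lowest values of Cps1 (-3.44), Nags (-3.17), Glul (-3.27) and Otc (-2.0) were all on that array. Differences that include CD 3 are therefore in many cases also given without this rat.

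The arrays were printed on 5 slides that only partly crossed the groups. Slide A held BD 3 and CD 14, slide B 1 array of CD 3 and 2 of BD 3, slide C all of BD 14 with 2 arrays of CD 14, slide D 3 arrays of CD 3, and slide E 1 array each of CD 3 and CD 14. BD 3 and BD 14 were never on the same slide. The reference channel was the same RNA throughout, yet its signal for the members, relative to the median of each array, varied with an SD of 0.45 to 0.90 over the 22 arrays, beside a median of 0.50 over all probes tested. For Cps1 the reference signal spanned 11.1-fold between arrays. The part of this variation in the differences between groups was not tested. Agreement between replicate spots on an array was close, with a median SD of 0.02 to 0.04 for 7 members and 0.37 for Slc25a15.

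Of the members, 7 were well above background on all 22 arrays and none was saturated on any. Slc25a15 was dim, with Cy5 signals from 3.1 to 54.8, and was well above background in 2 of 5 CD 3, 5 of 5 BD 3, 5 of 6 CD 14 and 5 of 6 BD 14 rats. It entered the test only because all BD 3 arrays measured it, and counts over the 8 members include it with that reservation.

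At 3 months the members leaned towards BASE-diet rats without any of them passing the test. The mean was higher in BD 3 than in CD 3 for 8 of 8 members and for 53.6% of all probes tested. The members' median difference was 0.49, beside 0.03 over all probes tested. The members' count and median include Slc25a15, at 0.46, which entered the test only through BD 3, the group where it was higher. Without CD 3 replicate 4, 5 of 8 were higher and the median was 0.08; under the slide block 7 of 8 were higher and it was 0.49. limma called 0 members at an adjusted p under 0.05, where it called 0% of the 19434 probes tested, and 0 members at an unadjusted p under 0.05, where 7.11% of probes stood. The groups overlapped for every member, so 0 were separated, beside 0.756% of probes. Tukey's HSD after an F test, as in the methods, also called 0.

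At 14 months 6 of 8 members, beside 56.3% of all probes tested, were higher in BD 14 than in CD 14, and Glul and Gls2 were lower. The median difference was 0.17, beside 0.05 over all probes. Under the slide block 7 of 8 were higher and the median was 0.33, but with Cy5 signal alone the median difference of the members was -0.13. limma again called 0 members after adjustment, with 0% of probes called, and 0 at an unadjusted p under 0.05, beside 4.6% of probes. The number of members whose groups did not overlap was 0, beside 0.767% of probes, and Tukey's HSD called 0.

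Between 3 and 14 months the members had no common direction. On control diet 5 were higher and 3 lower at 14 months, beside 53.4% of all probes higher. The median was 0.18, beside 0.03 over all probes. Without CD 3 replicate 4, 2 were higher and the median was -0.04, and with slide as a block 6 were higher and it was 0.20. limma called 0 members and 0% of probes after adjustment, and 1 member, Gls2, at an unadjusted p under 0.05, beside 10.1% of probes; 0 members were separated, beside 0.515% of probes. On BASE-diet 4 were higher and 4 lower, beside 58.6% of all probes higher, with a median of -0.11 beside 0.07. The lower members include Slc25a15, at -0.25, which entered the test only through BD 3, the group where it was higher. Under a strict filter on dim probes, which dropped Slc25a15, the members' median was above 0. With slide as a block 6 of 8 were higher and the median was 0.20. In this comparison limma called 0 members and 0% of probes after adjustment. At an unadjusted p under 0.05 stood 1 member, again Gls2, beside 7.44% of probes. Of the members 0 were separated, beside 2.26% of probes. Tukey's HSD called 0 members in either comparison.

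The difference between the diet effects at 14 and at 3 months was below 0 for 6 members and above it for 2, with a median of -0.11 beside 0.02 over all probes. It was above 0 for 52.4% of all probes tested. Without CD 3 replicate 4 it was above 0 for 4 of 8 members and the median was 0.09; under the slide block it was above 0 for 3 and the median was -0.09. limma called 0 members for it, with 0% of probes called, and 0 at an unadjusted p under 0.05, beside 4.8% of probes. The F test over the 4 groups called 0 members after adjustment, where 0.0257% of probes were called, and 1 member at an unadjusted p under 0.05 (Gls2, with an adjusted p of 0.393), where 10.5% of probes stood. With 8 members, counts of 0 and 1 are near these shares and are not a result about the pathway. A p that misses the threshold does not show that values did not differ, and the intervals given for single members show which differences the 22 rats left possible.

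**Figure D1:**
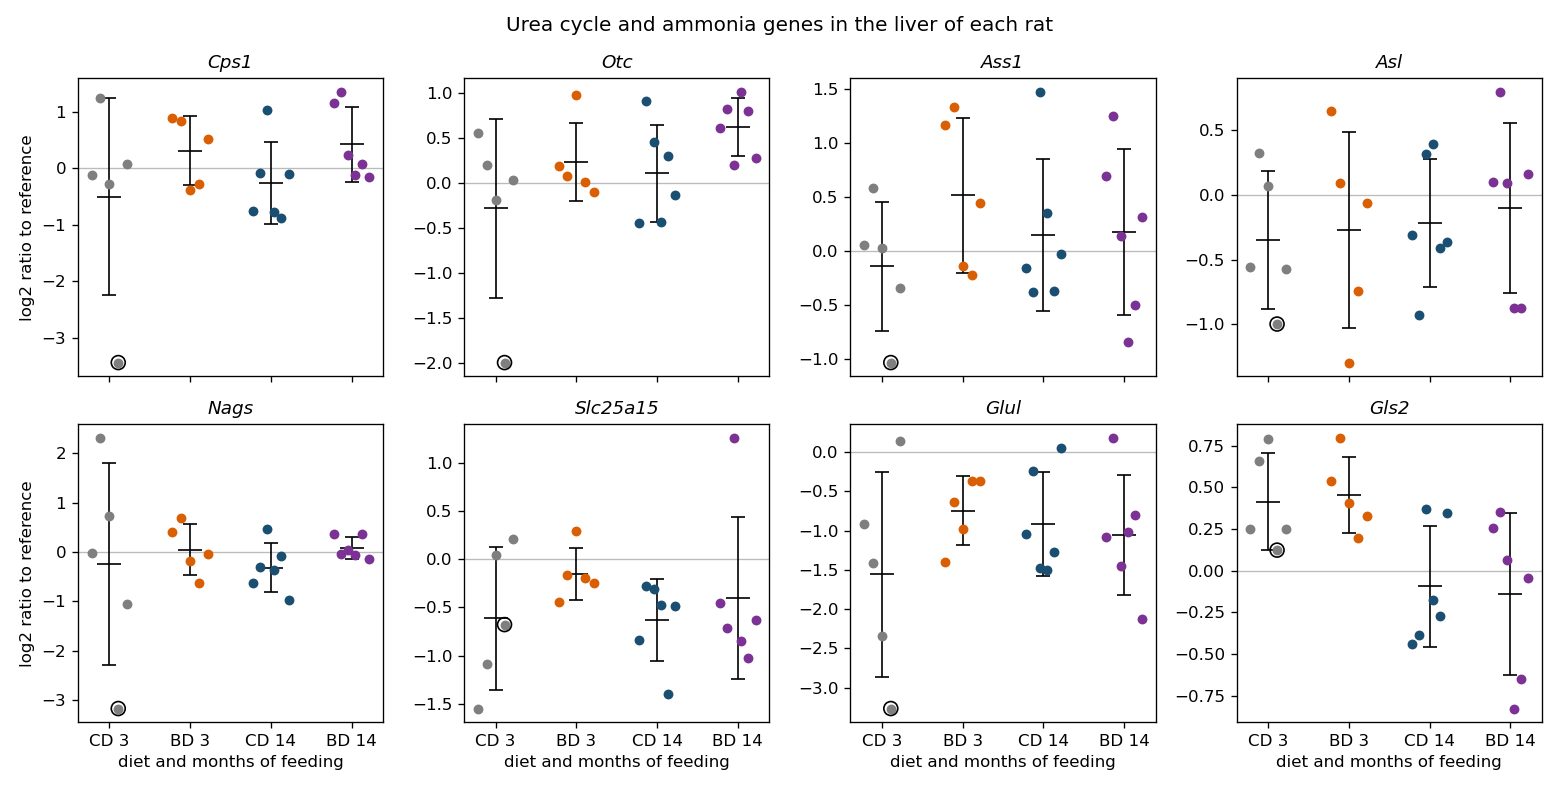
Log2 ratio to the common reference for each of the 8 members (vertical axes) in the liver of each rat, by diet and months of feeding (horizontal axis); points are rats, long horizontal marks are group means, whiskers are the SD, and the ringed point is CD 3 replicate 4. The ringed rat is the lowest of all 22 for Cps1 (-3.44), Otc (-2.0), Ass1 (-1.03), Nags (-3.17) and Glul (-3.27), and the groups overlap for every gene.

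Cps1 encodes carbamoyl-phosphate synthetase, which takes free ammonia into the cycle and is its rate-limiting enzyme. Its log2 ratios in CD 3 were -0.11, 1.24, -0.27, -3.44 and 0.07, and in BD 3 they were 0.89, 0.83, -0.39, -0.27 and 0.52. CD 14 ran from -0.89 through a median of -0.42 to 1.03, and BD 14 from -0.16 through 0.16 to 1.35. All 6 BD 14 rats lay above the CD 14 median, but CD 14 replicate 3 lay above 4 of them, and the 3-month groups overlapped over most of their range. The median Cy5 signal was 744 for CD 3 and 1872 for BD 3, against 1584 for CD 14 and 1410 for BD 14.

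The Cps1 difference at 3 months was 0.82 (95% interval -0.43 to 2.06), a 1.76-fold higher mean in BD 3, with 3 of 5 BD 3 rats above the CD 3 median and an adjusted p of 0.840. Without CD 3 replicate 4 it was 0.08. At 14 months it was 0.69 (-0.45 to 1.82; adjusted p = 0.952), and 1.26 on slide C, the only slide that held both 14-month groups. The 14-month difference ran from 0.16 to 1.26 over the alternatives. Over time the Cps1 difference was 0.24 (-0.95 to 1.43) in control rats and 0.11 (-1.08 to 1.30) in BASE-diet rats. In the latter it was 1.17 with slide as a block and -0.33 with Cy5 signal alone. For control rats the sign turned to -0.50 without CD 3 replicate 4.

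Nags makes N-acetylglutamate, the activator without which carbamoyl-phosphate synthetase does not work. It was the member with the most uneven control group: CD 3 held -0.01, 2.31, 0.72, -3.17 and -1.05, so that a single group contained both the highest and the lowest of all 22 rats. BD 3 held 0.40, 0.68, -0.18, -0.62 and -0.03, all inside the CD 3 range. CD 14 ran from -0.98 through -0.33 to 0.46 and BD 14 from -0.14 through 0.00 to 0.36, the narrowest spread of the 4 groups with an SD of 0.22. Each of the 6 BD 14 rats was above the CD 14 median, and BD 14 lay inside the range of CD 14.

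Accordingly no direction could be read for Nags at 3 months, where the difference was 0.29 (-0.98 to 1.56) with CD 3 replicate 4 and -0.44 without it. At 14 months the difference was 0.40 (-0.75 to 1.56; adjusted p = 0.956). Cy5 signal alone gave 1.00 at 3 months and -0.23 at 14 months for Nags. The diet difference at 14 months thus had the opposite sign when no ratio to the reference was taken.

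Otc, ornithine transcarbamylase, joins carbamoyl phosphate to ornithine to form citrulline. Its values were 0.55, 0.19, -0.20, -2.0 and 0.03 in CD 3, and 0.18, 0.08, 0.98, 0.01 and -0.10 in BD 3. CD 14 ran from -0.45 through 0.08 to 0.91, and BD 14 from 0.20 through 0.70 to 1.01. BD 14 was the one group in which every rat was above the reference, and all 6 of its rats exceeded the medians of both CD 14 and BD 3. Single rats of CD 14 and BD 3 nevertheless reached 0.91 and 0.98, inside the BD 14 range.

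For Otc the diet difference was 0.51 at both times, with intervals of -0.26 to 1.28 at 3 months and -0.19 to 1.21 at 14 months; the adjusted p values were 0.836 and 0.952, with 3 of 5 and 6 of 6 BASE-diet rats above the control median. Without CD 3 replicate 4 the 3-month difference was 0.08. The 14-month difference does not include that rat, but once the rat was left out its test gave an unadjusted p under 0.05 and an adjusted p of 0.711. Over all alternatives the adjusted p of this 14-month difference ran from 0.510 to 1. With slide as a block the Otc difference was -0.33 at 3 months and 0.69 at 14 months. The alternatives gave 0.27 to 0.69 for the difference at 14 months.

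Slc25a15 is the carrier that exchanges ornithine and citrulline across the inner mitochondrial membrane. It was below the reference in 18 of 22 rats, from -1.55 to 1.26, but at its low signal the spots of an array differed among themselves with a median SD of 0.37. The difference was 0.46 (-0.32 to 1.25) at 3 months, where only 2 of 5 CD 3 arrays measured it, and 0.23 (-0.49 to 0.94) at 14 months. The latter turned to -0.11 without BD 14 replicate 3 and to -0.66 with Cy5 signal alone, so no direction was read for Slc25a15 at 14 months. The size at 3 months was uncertain too: refits gave 0.04 to 1.01, and slide B alone gave 1.25.

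Ass1 and Asl act in the cytosol: argininosuccinate synthetase adds the nitrogen of aspartate to citrulline, and argininosuccinate lyase releases arginine. Ass1 ranged from -1.03 to 1.48 over the 22 rats. Its largest diet difference was at 3 months, 0.66 (-0.22 to 1.54; adjusted p = 0.812; 3 of 5 BD 3 rats above the CD 3 median), and it was 0.44 without CD 3 replicate 4. At 14 months the Ass1 means were nearly level, with a difference of 0.03 (-0.78 to 0.83). This difference was -0.48 with Cy5 signal alone, 0.18 with slide as a block, and -0.19 to 0.29 when single arrays were left out. With time on control diet Ass1 differed by 0.29, and by 0.87 with slide as a block. BD 3 replicates 1 and 2, at 1.17 and 1.33, carried most of the 3-month difference, since the other 3 rats of that group, at -0.13, -0.22 and 0.45, lay within the CD 3 range of -1.03 to 0.59.

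Fitted without slide, the diet differences of Asl were small beside the spread between rats. They were 0.08 (-0.70 to 0.85) at 3 months, -0.09 without CD 3 replicate 4, and 0.12 (-0.59 to 0.83) at 14 months, on values that spread from -1.30 to 0.79 among the rats. The group means of Asl, from -0.35 in CD 3 to -0.10 in BD 14, were thus close together beside the rats within a group, whose SD was 0.50 to 0.76. Under the slide block the Asl difference was 0.53 at 3 months and -0.09 at 14 months, and 0.74 with time on control diet in place of 0.13. On slide B the Asl difference at 3 months was 0.92, so for Asl too the size depended on slide.

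**Figure D2:**
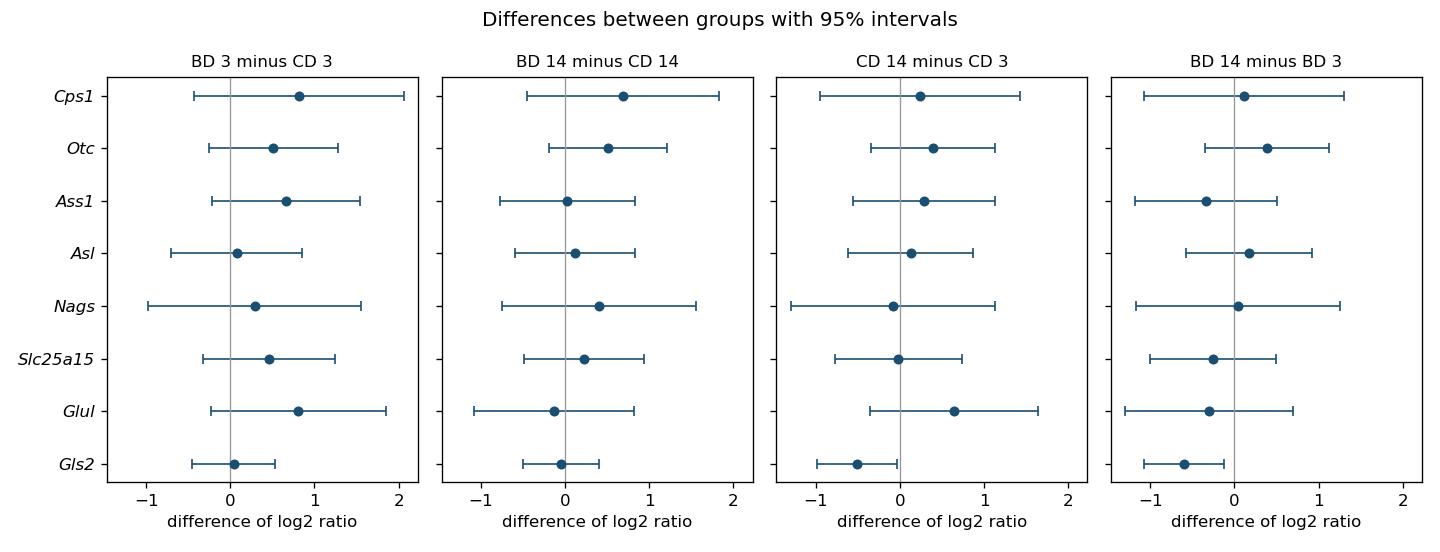
Differences in mean log2 ratio (horizontal axes) for each member (vertical axes) in the diet comparisons at 3 and 14 months and the time comparisons on either diet; points are limma estimates from all 22 arrays and bars are 95% intervals. Only the Gls2 intervals in the time comparisons lie entirely below 0, from -0.98 to -0.03 on control diet and from -1.07 to -0.12 on BASE-diet, and neither passed after adjustment.

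Glul, glutamine synthetase, binds ammonia to glutamate in the last hepatocytes before the central vein. It was below the reference in 19 of 22 rats. CD 3 held -0.92, -1.42, -2.34, -3.27 and 0.15, and BD 3 held -1.40, -0.63, -0.98, -0.37 and -0.37. CD 14 ran from -1.51 through -1.16 to 0.05, and BD 14 from -2.13 through -1.05 to 0.18. All 5 BD 3 rats lay above the CD 3 median, yet CD 3 spanned the whole range of BD 3. Fewer cells of a type and less RNA per cell cannot be told apart in whole liver, and for Glul, which only a thin layer of cells expresses, either would lower the ratio.

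The Glul difference at 3 months was 0.81 (-0.23 to 1.85; adjusted p = 0.805), which became 0.38 without CD 3 replicate 4 and 0.03 with slide as a block. On slide B alone it was -0.10. At 14 months it was -0.14 (-1.08 to 0.81), with 4 of 6 BD 14 rats above the CD 14 median although their mean was lower. From 3 to 14 months the Glul difference was 0.64 (-0.35 to 1.64) on control diet and -0.30 (-1.30 to 0.69) on BASE-diet, and the control value was 0.22 without CD 3 replicate 4. The change of sign between diets was not past the test of the difference itself, -0.94 (-2.35 to 0.46; adjusted p = 0.999), which was -0.52 without CD 3 replicate 4. Under the slide block each of these Glul values took the other sign: 0.34 for diet at 14 months, also the value on slide C, -0.27 and 0.05 with time, and 0.31 for the difference between diet effects. No direction was read from them. Of the members Glul had the smallest p for slide, with an adjusted p of 0.0598 in limma's F test over the 5 slides with groups left out of the model. Slide E held the 2 highest control rats, at 0.15 and 0.05, and slide D the 3 lowest values of CD 3, so slide and time in control rats cannot be fully told apart.

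Gls2, the liver-type glutaminase, frees ammonia from glutamine inside periportal mitochondria. In limma's time comparisons and F test over the 4 groups, though not by diet, Gls2 had the smallest p values of the members. In CD 3 it stood at 0.25, 0.66, 0.79, 0.12 and 0.25, and in BD 3 at 0.54, 0.80, 0.41, 0.19 and 0.33. All 10 of the 3-month rats were thus above the reference. CD 14 ran from -0.44 through -0.23 to 0.37 and BD 14 from -0.83 through 0.01 to 0.35. At 14 months 7 of 12 rats were below the reference; of the other 5, 4 lay within the range of the 3-month rats and BD 14 replicate 3, at 0.06, just below it, so the groups overlapped. The Cy5 signal had medians of 25087 and 23241 at 3 months (CD 3, BD 3) and of 15082.5 and 12690 at 14 months (CD 14, BD 14).

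On control diet the Gls2 mean at 14 months differed from that at 3 months by -0.51 (SE 0.23; interval -0.98 to -0.03), a 1.42-fold lower mean, with 4 of 6 CD 14 rats below the CD 3 median. limma gave an unadjusted p under 0.05 and an adjusted p of 0.463, which ran from 0.328 to 1 over the alternatives. On BASE-diet the difference was -0.60 (SE 0.23; -1.07 to -0.12), 1.51-fold lower, with all 6 BD 14 rats below the BD 3 median, an unadjusted p under 0.05 and an adjusted p of 0.559. Neither passed after adjustment. Leaving out each rat in turn kept the differences between -0.60 and -0.41 on control diet and between -0.69 and -0.46 on BASE-diet. Cy5 signal alone gave -0.52 for Gls2 on control diet and -0.69 on BASE-diet, the latter with an adjusted p of 0.0937, the lowest for any member under any setting; over the alternatives that value ran from 0.0937 to 1.

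The Gls2 difference in control rats depended on slide. Fitted with slide as a block, it was 0.03 on control diet and -0.36 on BASE-diet, and on slide E, where 1 rat of each age shared a slide, it was 0.10. limma's F test over slides gave an adjusted p of 0.207 for Gls2. On BASE-diet no slide held both ages, so that comparison rests on a link through the control rats. By diet the Gls2 difference was 0.04 (-0.46 to 0.54) at 3 months and -0.05 (-0.50 to 0.40) at 14 months. The 3-month value was -0.03 without CD 3 replicate 4, 0.47 with slide as a block and 0.41 on slide B, so its size depended on slide too.

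**Figure D3:**
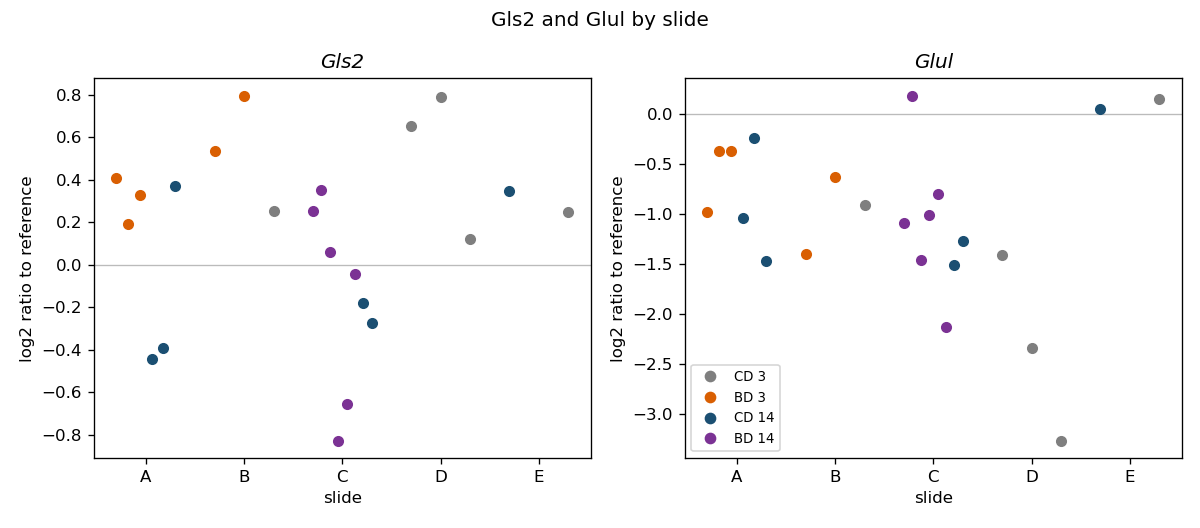
Log2 ratio of Gls2 and Glul (vertical axes) for each rat by slide (horizontal axis), coloured by group; each point is 1 rat. On slide E the CD 3 and CD 14 rats stand at 0.25 and 0.35 for Gls2 and at 0.15 and 0.05 for Glul, and slide C holds all 6 BD 14 rats.

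The members varied together only in part. Over the 22 arrays, which share the reference and the groups, the 28 pairs of members had a median Pearson correlation of 0.29, and 10 pairs exceeded 0.5; over 21 arrays without CD 3 replicate 4 the median was 0.14 and 6 pairs did. The neighbouring cytosolic steps Ass1 and Asl were the closest pair, at 0.83 (0.81 without that array), followed by Cps1 with Nags at 0.79 (0.57) and Cps1 with Ass1 at 0.74 (0.75). The correlation of Cps1 with Otc was 0.68 with it and 0.26 without it. The 28 pairs include those with Glul, Gls2 and the dim Slc25a15. Over the 22 arrays Cps1 was above 0.5 with each of Otc, Ass1, Asl and Nags, whereas Otc stood at 0.22 with Ass1 and at -0.01 with Asl. Pairs of other genes were not taken for comparison, so no conclusion is drawn on the cycle as a whole. The pairs of Cps1 with Nags and Otc owed more to a single array than the pair of Ass1 and Asl.

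Among 11168 named genes with a tested probe and a value on every array, those most like each member over the 22 arrays were listed by Pearson correlation. Ass1 was closest to Got1 (0.90), Sds (0.88) and Tat (0.86), all enzymes of amino acid metabolism, and Asl to Slc7a2 (0.89), a carrier of arginine and ornithine, Wdr12 (0.84) and Pdhx (0.84). Nags was closest to Mpst (0.97), Stard10 (0.96) and Aspdh (0.96), and Gls2 to Aldh1l1 (0.79), Rpp21 (0.78) and Arntl (0.77). These values differed by at most 0.04 without CD 3 replicate 4. The genes most like Cps1 were Tst, Orai1 and Hbs1l, each at 0.92, and at 0.81 without that array. For Otc, Ces2j stood at 0.91 (0.87 without it) and Ephx1 at 0.90 (0.77), and for Glul, Creb3l2 at 0.84 (0.80), Pcbp2 at 0.80 (0.66) and Sorbs2 at 0.78 (0.64). The likeness of Cps1, Otc and Glul to these genes thus rested in part on 1 rat. Slc25a15 reached 0.76 with Psme4 (0.77), 0.70 with Tbc1d9 (0.83) and 0.70 with Usp24 (0.70).

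Genes around the cycle were followed in 7 lists of 79 genes in all, of which 76 were on the array and 68 were tested. limma called 0 of the 68 after adjustment in each comparison. At an unadjusted p under 0.05, 3 were higher and 0 lower in BD 3 than in CD 3, 4 higher and 3 lower in BD 14 than in CD 14, 1 higher and 3 lower at 14 than at 3 months on control diet, and 3 higher and 4 lower on BASE-diet. As shares, these were 4.41%, 10.3%, 5.88% and 10.3% of the 68 genes, beside 7.11%, 4.6%, 10.1% and 7.44% of all probes tested. Where medians are given below as 4 values, they follow the order of these comparisons; the 2 values given without CD 3 replicate 4 are those of the comparisons with CD 3. The single list and marker genes given below with a difference had an unadjusted p under 0.05 in limma and adjusted p values from 0.201 to 0.952, so none passed after adjustment.

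Amino acid breakdown releases the ammonia. In BD 3, 14 of 16 of its genes had a higher mean than in CD 3 (median 0.25), but without CD 3 replicate 4 this was 8 of 16 (median -0.01), and under the slide block 11 of 16 (median 0.09, beside 0.15 over all probes). The 3 genes with an unadjusted p under 0.05 were Gldc, of the glycine cleavage system, at 1.81 (SE 0.53), its partner Amt at 0.84 (SE 0.34), and Sds, serine dehydratase, at 2.75 (SE 1.14). Under the slide block Gldc was at 0.35 and Amt at -0.05, while Sds was at 3.90. Without CD 3 replicate 4 they were at 1.16, 0.53 and 2.37, and only Gldc kept an unadjusted p under 0.05. In BD 14, 14 of 16 genes were again higher than in CD 14 (median 0.41; 15 of 16 and 0.26 with slide as a block), the smallest unadjusted p being that of Bckdhb, of the branched-chain keto acid dehydrogenase, at 0.74 (SE 0.28), and at 0.62 with slide as a block. With time, 8 of 16 were higher on control diet (median 0.02), but 1 of 16 without CD 3 replicate 4 (median -0.32) and 10 of 16 under the slide block (median 0.04), and 6 of 16 on BASE-diet (median -0.05, but 13 of 16 and 0.23 under the slide block); Gldc was higher by 1.83 (SE 0.51) in CD 14 than in CD 3, by 0.66 with slide as a block, and by 1.18 without CD 3 replicate 4.

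The transport list held carriers of ammonia, amino acids, glycerol and urea. Its genes were 4 of 10 higher at 3 months (median -0.09) and 5 of 10 at 14 months (median 0.02). Aqp9, a liver channel for glycerol and urea, was lower in BD 14 than in CD 14 by a difference of -0.63 (SE 0.18), and at -0.95 with slide as a block. The neutral amino acid carrier Slc1a4 was higher in BD 14, at 1.32 (SE 0.52), and at 0.82 with slide as a block. Slc1a2, a glutamate carrier of pericentral hepatocytes, was lower in BD 14 than in CD 14, at -0.98 (SE 0.29), and lower than in BD 3, at -1.26 (SE 0.31). Blocking on slide gave -1.20 and -1.70. Over time, 6 of 10 transport genes were higher on control diet (median 0.06) and 7 of 10 on BASE-diet (median 0.14), where Slc1a4 stood at 1.36 (SE 0.54), and at 1.01 with slide as a block. The transport medians were 0.06, 0.12, 0.03 and 0.06 under the slide block, and -0.11 and -0.06 without CD 3 replicate 4.

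The zone lists followed the lobule, whose ends hold Gls2 and Glul. Pericentral genes were lower at 14 months in most cases, with 1 of 9 higher on control diet (median -0.37) and 2 of 9 on BASE-diet (median -0.56). Blocking on slide gave 1 of 9 (median -0.62) and 4 of 9 (median -0.45). Lect2 was at -0.95 (SE 0.29) on control diet, and Cyp1a2, a pericentral cytochrome, at -1.05 (SE 0.36) on BASE-diet; under the slide block these were -0.91 and -1.89. Cyp1a2 was also lower in BD 14 than in CD 14, at -1.0 (SE 0.34) and at -1.59 with slide as a block. By diet, 5 of 9 pericentral genes were higher at 3 months (median 0.04) and 4 of 9 at 14 months (median -0.06), but the medians were -0.24 and 0.12 under the slide block, and the first was -0.15 without CD 3 replicate 4. Periportal genes showed no common direction, with 5 of 8 higher at 3 months (median 0.47), 5 of 8 at 14 months (median 0.03), 5 of 8 with time on control diet (median 0.17) and 3 of 8 on BASE-diet (median -0.22). Cyp2f4 was at -0.46 (SE 0.21) and -0.58 (SE 0.21) in the last 2 of these, and at -0.80 and -0.59 under the slide block. The periportal medians were -0.20, 0.35, -0.04 and 0.53 with slide as a block, and 0.14 and -0.18 without CD 3 replicate 4.

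Genes that supply nitrogen to the cycle were 7 of 13 higher at 3 months (median 0.09), 10 of 13 at 14 months (median 0.15), and 5 of 13 with time on control diet (median -0.06) and on BASE-diet (median -0.25). Their medians were 0.18, 0.28, -0.10 and 0.17 under the slide block, and 0.05 and -0.18 without CD 3 replicate 4. That last median had 3 of 13 higher, with 4 genes lower and 1 higher at an unadjusted p under 0.05. In that fit, 2372 of 19578 probes stood at an unadjusted p under 0.05. Gpt, alanine aminotransferase, was lower in CD 14 than in CD 3, at -1.30 (SE 0.35), and at -0.31 with slide as a block. On BASE-diet Gpt was at -0.78 (SE 0.35) with time, but at 0.06 with slide as a block. Genes for other fates of arginine, ornithine and aspartate were 6 of 10 higher at 3 months (median 0.04), 9 of 10 at 14 months (median 0.31), 4 of 10 with time on control diet (median -0.05) and 5 of 10 on BASE-diet (median 0.09). These medians were 0.13, 0.27, 0.21 and 0.12 under the slide block, and -0.03 and -0.09 without CD 3 replicate 4. Asns, which makes asparagine from aspartate and glutamine, was at 1.60 (SE 0.52) in BD 14 against BD 3, and at 2.24 with slide as a block. The nitric oxide synthases, which use arginine, stood at 0.56 (SE 0.22) for Nos2 in BD 14 against CD 14 and at 0.72 (SE 0.29) for Nos3 in BD 14 against BD 3, and at 0.17 and 0.75 under the slide block. Regulators of urea cycle genes were 5 of 8 higher at 3 months (median 0.06), 2 of 8 at 14 months (median -0.15), 3 of 8 with time on control diet (median -0.02) and 4 of 8 on BASE-diet (median -0.05). The regulator medians were 0.51, -0.07, 0.23 and -0.17 under the slide block, and -0.01 and -0.04 without CD 3 replicate 4. The receptor Hnf4a was at 0.77 (SE 0.29) in BD 14 against CD 14, and at 0.37 with slide as a block.

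Markers of other cells were followed in the same way, and none passed after adjustment. Of the Kupffer cell and leukocyte markers, 8 of 8 tested were higher in CD 14 than in CD 3 (median 1.17), beside 53.4% of all probes (median 0.03). At an unadjusted p under 0.05 stood 5 of these markers, beside 10.1% of all probes. They included Clec4f at 1.34 (SE 0.43) and Cd68 at 1.19 (SE 0.41). The slide block left a median of 0.33, with 6 of 8 higher, 0 of them at an unadjusted p under 0.05, Clec4f at 0.69 and Cd68 at 0.34; without CD 3 replicate 4 the median was 1.38. Their mean level by group was -1.52 (CD 3) and -1.01 (BD 3) at 3 months, -0.52 (CD 14) and -0.69 (BD 14) at 14 months, and their part in the members' values was not tested. On BASE-diet 8 of 8 were higher with time (median 0.25), but 0 of 8 under the slide block (median -0.60), and by diet 8 of 8 at 3 months (median 0.52) and 1 of 8 at 14 months (median -0.22). The slide block gave 0.42 and -0.64 by diet, with 7 of 8 and 0 of 8 higher, and the 3-month median was 0.82 without CD 3 replicate 4. Hepatocyte markers were 5 of 8 higher at 3 months (median 0.15), 2 of 8 at 14 months (median -0.05), 6 of 8 with time on control diet (median 0.25) and 5 of 8 on BASE-diet (median 0.09). Without CD 3 replicate 4 they were 3 of 8 at 3 months (median -0.13) and 3 of 8 with time on control diet (median -0.07). Slide as a block gave hepatocyte medians of 0.14, 0.03, 0.09 and 0.16.

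Red cell markers were lower on BASE-diet, 0 of 4 being higher at 3 months (median -0.93) or 14 months (median -0.40), while 4 of 4 were higher with time on either diet (medians 0.23 and 0.79). The red cell medians were -1.50, -0.73, -0.13 and 0.50 under the slide block, where 1 of 4 was higher with time on control diet, and -0.83 and 0.33 without CD 3 replicate 4. Hbb-b1 was at -1.49 (SE 0.53) and Hbb at -1.19 (SE 0.46) in BD 3 against CD 3, and at -1.21 and -1.01 without CD 3 replicate 4, where only Hbb-b1 kept an unadjusted p under 0.05. With the slide block they were at -1.71 and -1.68, both at an unadjusted p under 0.05. Stellate cell and fibroblast markers were 7 of 8 higher at 3 months (median 0.25), 5 of 8 at 14 months (median 0.08), and 6 of 8 and 4 of 8 with time (medians 0.14 and -0.04). Blocking on slide gave medians of -0.33, 0.49, -0.22 and 0.46, and leaving out CD 3 replicate 4 gave 0.23 and 0.08. Pdgfrb was at 0.63 (SE 0.30) in BD 3 against CD 3, at -0.07 under the slide block, and at 0.31 without CD 3 replicate 4, no longer at an unadjusted p under 0.05. Endothelial markers were 4 of 4 and 1 of 4 higher by diet (medians 0.18 and -0.28) and 2 of 4 with time on either diet (medians 0.00 and -0.11), with Lyve1 at 1.53 (SE 0.43) in CD 14 against CD 3, and at 1.85 with slide as a block. The endothelial medians were 0.18, 0.15, 0.04 and 0.34 under the slide block, and 0.20 and 0.05 without CD 3 replicate 4. These cells lie in the sinusoids and vessels of whole liver, and whether their share differed between rats was not tested.

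The remaining marker lists tested few genes. Bile duct markers, none of them above background on every array, were 2 of 4 and 3 of 4 higher by diet (medians -0.01 and 0.23) and 3 of 4 and 4 of 4 with time (medians 0.51 and 0.66). Their medians were -0.32, 0.43, 0.17 and 0.78 under the slide block, with 0 of 4 higher in the first, and -0.10 and 0.27 without CD 3 replicate 4. Of 6 exocrine pancreas markers 2 were tested, with medians of -0.92 and 0.02 by diet and -0.94 and 0.00 with time; under the slide block these were -0.13 and -0.24 by diet and -0.10 and -0.21 with time, and without CD 3 replicate 4 the first of each pair was -0.68 and -0.70. Of 5 small intestine markers on the array 3 were tested, with medians of 0.10 and 0.06 by diet and 0.10 and 0.06 with time. Slide as a block gave 0.27, 0.11, 0.10 and 0.51, and leaving out CD 3 replicate 4 gave 0.03 and -0.03. Carry-over from these tissues into the members was not tested.

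Each member was read through a probe of 60 bases. The array's annotation placed 7 of the 8 on the rat build rn4 and gave no position for Glul. The probes of 5 members are shown because they state which stretch of the transcript carried the values above. The Cps1 probe covered chr9:66002449-66003777 on the plus strand, a span of 1329 bases, and the Otc probe chrX:24619355-24624560 on the minus strand, a span of 5206, so each crossed at least 1 exon junction. So did the probes of Ass1 at chr3:10620727-10622079 and Nags at chr10:91213944-91214110, both on the plus strand. The Asl probe lay unbroken at chr12:27720030-27720089 on the plus strand.
Cps1: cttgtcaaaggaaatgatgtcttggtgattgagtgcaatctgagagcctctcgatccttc
Otc: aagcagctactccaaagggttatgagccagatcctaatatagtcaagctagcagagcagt
Ass1: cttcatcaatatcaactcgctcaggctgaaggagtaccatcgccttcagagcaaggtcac
Asl: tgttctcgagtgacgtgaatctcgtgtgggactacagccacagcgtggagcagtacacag
Nags: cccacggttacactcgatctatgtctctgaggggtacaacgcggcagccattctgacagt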

How the data were processed

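Liver RNA of 22 rats and a common reference were measured on 2-colour Agilent rat arrays, 1 array for each rat. Log10 ratios of Cy5 over Cy3 and processed intensity values of each channel were deposited by the authors, who subtracted background and applied Lowess dye normalization in Agilent Feature Extraction (version 10.10.1.1 per the file headers, 10.7.3.1 in the processing notes). The deposited log10 ratios were turned to log2. Non-uniform spots were left out, spots of a probe were averaged, and a probe was tested if 1 group or more had, in Cy5 on each of its arrays, a share of 0.5 or more of the probe's spots clear of background, leaving 19434 of 30367 probes. A table holding only features the authors selected on their own test was not used.

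Group means were fitted over all 22 arrays with lmFit and eBayes of limma 3.58.1 in R 4.3.3, after the fit was tested on simulated data, with two-sided p-values and Benjamini-Hochberg adjustment over all probes tested. Tables and figures were made with Python 3.11.15, numpy 2.4.6, pandas 2.3.3, scipy 1.17.1 and matplotlib 3.10.9. The number of rats in a group limits the precision. The main probe of a gene was the one with the highest mean Cy5 signal. Named were the 8 members, up to 6 list genes for each comparison with the smallest unadjusted p under 0.05, and up to 3 genes most correlated with each member; 1 further member and 1 correlated gene are not reported here. The names of all 8 members matched RefSeq symbols. Members and lists were chosen with earlier results of these data known.

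Alternatives were normexp with loess, Cy5 signal alone after quantile normalization, centring of arrays, no filter or a strict filter on dim probes, non-uniform spots kept, slide as a block and values within slides, the replicate block, array weights, the compared groups alone, the mean over a gene's probes, an F test with Tukey's HSD as in the methods, and each array left out in turn. Leaving out the 2 arrays with many non-uniform spots, and the lists with slide as a block or without CD 3 replicate 4, were chosen after seeing the data.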

Additional observations from a re-analysis of the deposited data

Results flagged for a closer look

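Among the 32 combinations of member and group, 2 held a rat far from the others of its group. Otc on BD 3 replicate 3 was at 0.98 (0.977302), above the other 4 rats at -0.10 to 0.18. Slc25a15 on BD 14 replicate 3 was at 1.26 (1.26199), above the other 5 at -1.03 to -0.46, on a probe of low signal. Chance alone sets about 1 in 20 groups apart in this way.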

How the results depend on the processing

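No member passed the adjusted threshold in any comparison under any of the 35 settings, which gave 1379 values, the lowest adjusted p being 0.0937 (Gls2, BD 14 minus BD 3, Cy5 signal alone). Directions were less stable: of the 40 member differences, 21 took the opposite sign at least once when 1 array was left out, and the other refits turned the sign in 48 values. Comparing rats within a slide turned 10 more, of which the 3 on slide C are the values of the slide block again. The interaction is the diet difference at 14 months minus that at 3 months. With normexp and loess the turned differences were Ass1 -0.0065 for BD 14 minus CD 14, Otc 0.0030 for the interaction. With the Cy5 channel alone the turned differences were Ass1 -0.48, Asl -0.14, Nags -0.23, Slc25a15 -0.66 and Glul 0.33 for BD 14 minus CD 14, Nags 0.51 and Slc25a15 0.46 for CD 14 minus CD 3, Cps1 -0.33, Asl -0.032, Nags -0.72 and Glul 0.29 for BD 14 minus BD 3, Asl -0.22 and Nags -1.23 for the interaction. With arrays centred on their median the turned differences were Gls2 -0.0026 for BD 3 minus CD 3, Ass1 -0.035 for BD 14 minus CD 14, Nags -0.022 for BD 14 minus BD 3. With non-uniform spots kept the turned differences were Gls2 -0.014 for BD 3 minus CD 3. With slide as a block the turned differences were Otc -0.33 for BD 3 minus CD 3, Asl -0.091, Glul 0.34 and Gls2 0.083 for BD 14 minus CD 14, Otc -0.28, Nags 0.37, Slc25a15 0.029, Glul -0.27 and Gls2 0.028 for CD 14 minus CD 3, Ass1 0.28 and Glul 0.048 for BD 14 minus BD 3, Cps1 0.74, Otc 1.02, Asl -0.62, Nags -0.020 and Glul 0.31 for the interaction. With the replicate block the turned differences were Nags 0.013 for CD 14 minus CD 3. With array weights the turned differences were Nags -0.043 and Gls2 -0.034 for BD 3 minus CD 3, Ass1 -0.12 for BD 14 minus CD 14, Cps1 -0.12 and Asl -0.039 for CD 14 minus CD 3, Cps1 0.14, Otc 0.12 and Slc25a15 0.076 for the interaction. Leaving out the 2 arrays richest in non-uniform spots, a choice made after seeing the data, the turned differences were Gls2 -0.0018 for BD 3 minus CD 3, Ass1 -0.033 for BD 14 minus CD 14, Nags 0.044 for CD 14 minus CD 3, Nags -0.0062 for the interaction. Within slide B the turned differences were Otc -0.42 and Glul -0.10 for BD 3 minus CD 3. Within slide C the turned differences were Asl -0.091, Glul 0.34 and Gls2 0.083 for BD 14 minus CD 14. Within slide E the turned differences were Cps1 -0.17, Otc -0.17, Nags 0.073, Glul -0.10 and Gls2 0.10 for CD 14 minus CD 3. The cause of these turns was not tested. Cps1 for BD 14 minus BD 3 kept its sign but was 1.17 with slide as a block. The slide block also shifted the median over all probes, which was then 0.15 at 3 months by diet and 0.14 on control diet by time, and -0.11 for the interaction. The median difference of the members also turned its sign in some settings. The median difference of the members, BD 14 minus BD 3, was 0.20 with slide as a block, 0.037 with the strict detection filter and 0.029 without BD 3 replicate 2. That for BD 14 minus CD 14 was -0.13 with the Cy5 channel alone. That for CD 14 minus CD 3 was -0.082 with array weights, -0.036 without CD 3 replicate 4 and -0.014 within slide E. That for the interaction was 0.062 with array weights, 0.095 without CD 3 replicate 4 and 0.037 without CD 14 replicate 3. With no filter, the strict filter, the mean over a gene's probes, only the compared groups, and the methods' F test and Tukey's HSD, the member differences were the same numbers, since each member had 1 probe and these settings do not alter its group means, so their signs could not turn. The last 2 gave no interaction, no slide gave BD 14 minus BD 3, and the strict filter dropped Slc25a15. Leaving out 1 array at a time gave, for the differences whose sign turned, the following lowest and highest values. For BD 3 minus CD 3 these were Asl -0.15 to 0.33, Nags -0.44 to 0.93 and Gls2 -0.047 to 0.13. For BD 14 minus CD 14 these were Ass1 -0.19 to 0.29, Asl -0.063 to 0.27, Slc25a15 -0.11 to 0.35, Glul -0.38 to 0.081 and Gls2 -0.15 to 0.088. For CD 14 minus CD 3 these were Cps1 -0.50 to 0.67, Otc -0.038 to 0.60, Asl -0.031 to 0.30, Nags -0.81 to 0.56 and Slc25a15 -0.25 to 0.19. For BD 14 minus BD 3 these were Cps1 -0.074 to 0.25, Asl -0.084 to 0.40 and Nags -0.13 to 0.20. For the interaction these were Cps1 -0.56 to 0.61, Otc -0.21 to 0.43, Asl -0.21 to 0.27, Nags -0.52 to 0.84 and Gls2 -0.19 to 0.050. Across all probes, the counts called differed more: Cy5 signal alone called 262, 0, 13 and 46 probes for diet at 3 months, diet at 14 months, time on control diet and time on BASE-diet, array weights called 0, 4, 0 and 99, and the compared groups alone called 0, 0, 0 and 22. Tukey's HSD called 0, 1, 1 and 1, the mean over a gene's probes 1, 0, 0 and 3, the strict filter 0, 0, 0 and 2, and both centring and leaving out the 2 arrays 2, 0, 0 and 0, where limma on all arrays called 0 in each. Leaving out CD 3 replicate 5 called 93 probes for diet at 3 months and 205 for time on control diet; leaving out any other single array called at most 5 in a comparison.

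The replicate block, the rat number of the labels, called 0 members; 24 of its 40 member differences were the same numbers as without it. Same-numbered rats deviated with correlations of -0.26 to 0.29 from their group means.

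The limits of these values are the number of rats, a reference channel that varied between arrays, slides that crossed the groups only in part, and 1 dim array in CD 3. Slc25a15 was near background and its ratios are the least certain. Over all arrays, the intervals of the diet and time differences of Cps1, Otc, Nags and Glul spanned both signs in every comparison. They also reached beyond 1 on the log2 scale on at least 1 side, so differences of that size were left possible.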
